A study of Mus musculus with 9 samples.

Results

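The nuclear lamina and LINC complex transcripts considered here are those of 10 genes, *Lmna*, *Lmnb1*, *Lmnb2*, *Lbr*, *Emd*, *Tmpo*, *Sun1*, *Sun2*, *Syne1* and *Syne2*, out of 25500 entries measured in splenic Tregs. All 10 were found in the table and all 10 passed the filter on low values in the KO against WT comparison. They were chosen by gene name, with measured values of these same libraries already known, and no threshold on a value was used. Counts over the 10 are therefore descriptions of the set and are read beside the share of all genes that did the same.

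The lamina is a meshwork of intermediate filaments under the inner nuclear membrane, built from A-type lamins, which are spliced from *Lmna*, and B-type lamins, which are encoded by *Lmnb1* and *Lmnb2*. Inner membrane proteins such as the lamin B receptor, emerin and the lamina-associated polypeptides bind lamins and chromatin. SUN proteins of the inner membrane and nesprins of the outer membrane join across the nuclear envelope as the LINC complex, which ties the lamina to the cytoskeleton. Lymphocytes are known for low A-type lamin and prominent B-type lamins, and A-type lamin is known to increase when T cells are activated.

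The question was how transcripts of splenic Tregs differ once gp96, the endoplasmic reticulum chaperone encoded by *Hsp90b1*, is deleted. KO mice were Foxp3 eGFP-Cre-ERT2 Hsp90b1 fl/fl and WT mice were Foxp3 eGFP-Cre-ERT2 Hsp90b1 WT/WT, both on the C57BL/6 background and, per the study's methods, 8 to 12 weeks old and matched for age and sex. Both genotypes received tamoxifen at 75 mg/kg for 10 days, and Cre is made only where *Foxp3* is transcribed, so deletion was directed to Tregs. RNA came from 1000000 sorted GFP+ splenic Tregs per sample. The labels list 5 KO libraries and 4 WT libraries but state 4 mice per genotype, without tying each library to an animal, so p-values measure the spread between these samples. Since the study's normalized columns hold KO 2 to KO 5, these 4 were compared with WT 1 to WT 4, and KO 1 is given beside them.

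Values are the deposited FPKM, which count fragments relative to the length of a gene and to the size of its library. The reads recovered from them summed to between 11863233 and 16105234 per library, except for KO 1 with 23790760. *Hsp90b1* measured 1.77 to 3.11 FPKM in the KO libraries and 44.4 to 62.9 FPKM in the WT libraries, so every label matched its deletion. *Foxp3* averaged 108 ± 1.71 FPKM in KO 2 to KO 5 and 98.2 ± 10.3 FPKM in WT (SD, n = 4 each). It measured 55.0 FPKM in KO 1, below every WT library, of which WT 1 was the lowest at 83.0 FPKM. KO 1 and WT 1 stood apart from the other 7 libraries, at −67.6 and −69.9 on a first principal component that held 58.6% of the variance, against 8.88 to 26.3 for the others. Results are therefore also given for all 9 libraries and for the 7 libraries without KO 1 and WT 1. In bulk RNA, a smaller share of cells that carry a transcript and less of it per cell cannot be told apart.

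Of the 10 genes, *Lmna* and *Syne2* rose in KO Tregs, where limma called 6.58% of all tested genes higher and 6.68% lower. *Lmna* was 7.72 times as abundant in KO 2 to KO 5 as in WT, and *Syne2* 2.62 times. Over all 9 libraries these ratios were 8.29 and 2.26, and there *Lmna* passed the test and *Syne2* did not (limma adjusted p = 2.41e-05 and 0.152). The transcripts of both B-type lamins, emerin and the lamina-associated polypeptides did not pass the test. Without KO 1 and WT 1, *Lbr*, *Sun1*, *Sun2* and *Syne1* were also called higher in KO, against 19.1% of all genes.

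The windows around the annotated starts of *Lmna* and *Syne2* are shown because these are the 2 genes called in the main comparison. Each runs from 250 bases before to 50 bases after a RefSeq start on GRCm38.p6, is printed on the strand of the gene, and has matches to 7 searched motifs in capitals. *Lmna* has 2 windows, the first at chr3:88503303-88503602 and the second at chr3:88493263-88493562, both on the minus strand, and the *Syne2* window lies at chr12:75818068-75818367 on the plus strand.
Lmna window 1: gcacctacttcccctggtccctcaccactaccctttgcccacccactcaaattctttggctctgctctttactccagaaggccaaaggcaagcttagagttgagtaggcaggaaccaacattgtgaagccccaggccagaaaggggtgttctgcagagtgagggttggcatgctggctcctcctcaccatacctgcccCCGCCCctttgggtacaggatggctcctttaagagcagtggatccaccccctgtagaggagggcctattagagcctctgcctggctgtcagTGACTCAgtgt
Lmna window 2: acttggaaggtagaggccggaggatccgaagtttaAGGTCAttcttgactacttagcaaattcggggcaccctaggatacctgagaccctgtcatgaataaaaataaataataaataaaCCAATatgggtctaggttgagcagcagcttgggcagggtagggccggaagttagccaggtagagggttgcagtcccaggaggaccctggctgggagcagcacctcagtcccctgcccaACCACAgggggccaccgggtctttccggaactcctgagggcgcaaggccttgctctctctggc
Syne2 window: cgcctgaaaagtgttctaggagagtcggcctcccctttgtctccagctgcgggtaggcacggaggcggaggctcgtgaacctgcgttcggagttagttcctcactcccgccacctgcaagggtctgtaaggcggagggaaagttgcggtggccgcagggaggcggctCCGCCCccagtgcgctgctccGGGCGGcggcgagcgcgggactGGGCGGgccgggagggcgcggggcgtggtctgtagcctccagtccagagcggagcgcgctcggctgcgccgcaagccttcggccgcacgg

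The *Lmna* and *Syne2* windows differed in composition. The first *Lmna* window was 56.3% G or C with 1 CpG, the second was 54.7% with 7 CpGs, and the *Syne2* window was 71.0% with 35 CpGs, against a median of 52.7% G or C over all 32851 windows. The motifs, read on both strands, were AP-1 (TGANTCA, in 7.81% of all windows), the CCAAT box (CCAAT, 37.4%), the GC box (GGGCGG, 35.7%), STAT (TTCNNNGAA, 8.3%), RUNX (TGTGGT, 16.8%), forkhead (TGTTTAC, 3.65%) and the nuclear receptor half-site (AGGTCA, 16.3%). The first *Lmna* window held a GC box and an AP-1 match, the second held a CCAAT box, a RUNX match and a half-site, and the *Syne2* window held 3 GC boxes and none of the other letters. No capitals of different motifs overlap in these windows. The GENCODE model of *Lmna* begins upstream of both RefSeq starts, so a further start is not shown. Of the other genes, *Lbr*, *Sun1*, *Sun2* and *Tmpo* each had a window with 36 to 42 CpGs and 71.3% to 72.0% G or C. A match is a run of letters and no measurement of binding.

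*Lmna*, which encodes lamins A and C, measured 15.1 FPKM in KO 1, 10.4 in KO 2, 10.8 in KO 3, 11.5 in KO 4 and 11.3 in KO 5, against 1.79 in WT 1, 1.45 in WT 2, 1.24 in WT 3 and 1.22 in WT 4. The groups did not overlap, and KO 1 and WT 1 were each the highest of their genotype, both 1.37 times the mean of the other libraries. KO 2 to KO 5 averaged 11.01 ± 0.487 FPKM and WT 1.43 ± 0.265 FPKM (SD, n = 4 each). Log2 fold changes from limma, here and below, are of FPKM + 1 and so differ from the ratio of these means. For *Lmna* the log2 fold change was 2.31 (SE 0.09, 95% interval 2.1 to 2.53, limma adjusted p = 1.7e-05). Among 12237 genes tested, this was the fourth largest rise on the log2(FPKM + 1) scale and also the fourth smallest p, and by limma-voom on recovered reads it ranked 17 among the rises of 11590 genes. The exact two-sided permutation test gave p = 0.0286 for 4 against 4 libraries and p = 0.00794 over all 9, each the smallest that these group sizes allow. With all 9 libraries the log2 fold change was 2.40, and without KO 1 and WT 1 it was 2.38.

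The *Lmna* difference rested on 901 to 1921 recovered reads in the KO libraries and 113 to 151 in the WT libraries. In WT Tregs *Lmna* lay at the 9.5 percentile of tested genes and was the lowest of the 10 by mean FPKM, with *Syne2* next at 1.45 ± 0.458 FPKM and overlapping it. In KO 2 to KO 5 it was the seventh of the 10, above *Lmnb2*, *Syne1* and *Syne2*, with no library overlapping theirs. The gene lies at chr3:88480147-88509956 on the minus strand of GRCm38 and shares no exon base with another annotated gene.

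**Figure D1:**
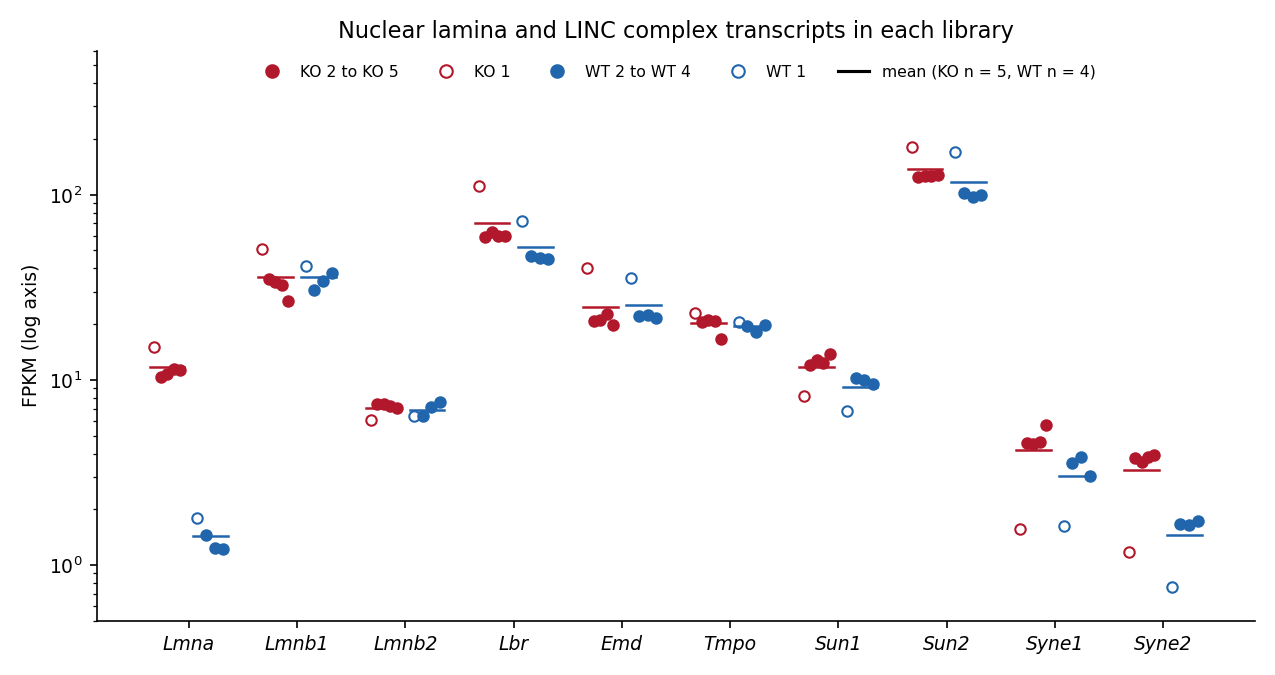
FPKM on a log axis for the 10 lamina and LINC complex genes, 1 point per library, KO in red left of WT in blue, with KO 1 and WT 1 as open points and lines at the means (KO n = 5, WT n = 4). All KO points of *Lmna* (10.4 to 15.1 FPKM) lie above all WT points (1.22 to 1.79 FPKM), while the *Lmnb1*, *Lmnb2* and *Tmpo* points intermix.

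The B-type lamins, which attach to the membrane through a farnesyl group, did not pass the test. *Lmnb1* measured 51.0 FPKM in KO 1, 35.1 in KO 2, 33.9 in KO 3, 32.6 in KO 4 and 26.8 in KO 5, against 41.3 in WT 1, 30.6 in WT 2, 34.2 in WT 3 and 37.7 in WT 4. *Lmnb2* measured 6.09 FPKM in KO 1, 7.41 in KO 2, 7.38 in KO 3, 7.20 in KO 4 and 7.02 in KO 5, against 6.35 in WT 1, 6.37 in WT 2, 7.14 in WT 3 and 7.57 in WT 4. The genotypes overlapped for both genes, and KO 5 held the lowest *Lmnb1* value. *Lmnb1* averaged 32.1 ± 3.67 FPKM in KO 2 to KO 5 and 36.0 ± 4.58 FPKM in WT (SD, n = 4 each). Its log2 fold change was −0.16 with a 95% interval of −0.44 to 0.12 (limma adjusted p = 0.376). For *Lmnb2* the means were 7.25 ± 0.18 FPKM in KO 2 to KO 5 and 6.86 ± 0.602 FPKM in WT (SD, n = 4 each). Its log2 fold change was 0.07 with an interval of −0.1 to 0.25 (limma adjusted p = 0.511). These intervals leave room for a modest change of either sign, and their upper ends lie far under the lower end for *Lmna*. *Lmnb1* lies at chr18:56707813-56753424 on the plus strand and *Lmnb2* at chr10:80901203-80918245 on the minus strand, and neither shares exon bases with another annotated gene.

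Within each library, *Lmna* made up 19.7% to 25.0% of the summed FPKM of the 3 lamin genes in the 5 KO libraries and 2.62% to 3.78% in the 4 WT libraries. KO 1 (20.9%) and WT 1 (3.62%) lay inside the range of their own genotype in this ratio, unlike in the levels of *Lmna* itself. *Lmnb1* over *Lmnb2* was 3.82 to 4.74 in KO 2 to KO 5 and 8.37 in KO 1, against 4.79 to 4.98 in WT 2 to WT 4 and 6.51 in WT 1, so the libraries that stood apart had the highest values here. These ratios are given as descriptions with no test.

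**Figure D2:**
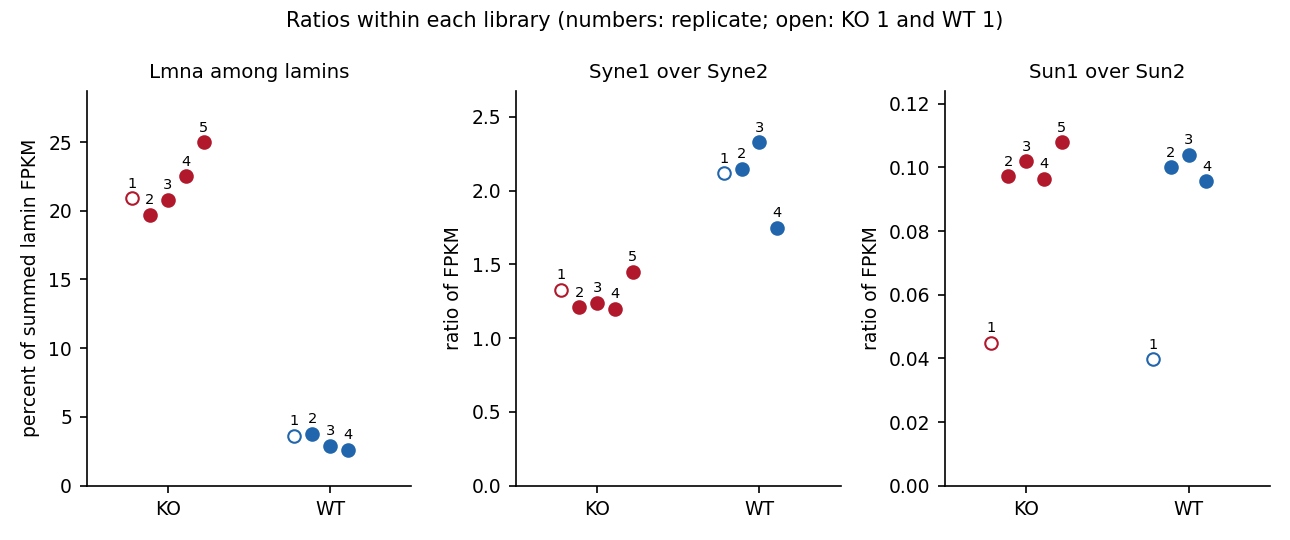
Ratios of FPKM within each library, KO left of WT, labelled by replicate number, with KO 1 and WT 1 as open points. The *Lmna* share of lamin FPKM (19.7% to 25.0% in KO, 2.62% to 3.78% in WT) and *Syne1* over *Syne2* (1.2 to 1.45 in KO, 1.75 to 2.33 in WT) separate the genotypes in all 9 libraries, and *Sun1* over *Sun2* does not.

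Of the inner membrane proteins, none was called in the main comparison. *Lbr*, the lamin B receptor, which also acts as a sterol reductase, measured 112 FPKM in KO 1, 58.8 in KO 2, 63.2 in KO 3, 60.2 in KO 4 and 59.6 in KO 5, against 72.3 in WT 1, 46.5 in WT 2, 45.5 in WT 3 and 45.1 in WT 4. WT 1 lay above KO 2 to KO 5, and the other 3 WT libraries lay below every KO library. The log2 fold change was 0.23 (95% interval −0.12 to 0.59, limma adjusted p = 0.32), and without KO 1 and WT 1 it was 0.40 (interval 0.31 to 0.48, adjusted p = 0.000189). With the replicate number as a block over all 9 libraries, *Lbr* was also called, at 0.46 (limma adjusted p = 0.00487). Whether the replicate numbers mark pairs is not known. *Lbr* shares 440 exon bases with *Dnah14* on the other strand, which measured at most 0.543 FPKM in any library, and lies at chr1:181815335-181843046 on the minus strand.

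*Emd*, which encodes emerin, measured 40.1 FPKM in KO 1, 20.7 in KO 2, 21.0 in KO 3, 22.8 in KO 4 and 19.8 in KO 5, against 35.6 in WT 1, 22.2 in WT 2, 22.3 in WT 3 and 21.5 in WT 4. *Tmpo*, which encodes the LAP2 proteins, measured 22.9 FPKM in KO 1, 20.6 in KO 2, 21.0 in KO 3, 20.7 in KO 4 and 16.6 in KO 5, against 20.5 in WT 1, 19.5 in WT 2, 18.2 in WT 3 and 19.9 in WT 4. Both genes overlapped between genotypes, and the high *Emd* values were those of KO 1 and WT 1. The log2 fold change was −0.23 for *Emd* (95% interval −0.59 to 0.14, limma adjusted p = 0.338) and 0.01 for *Tmpo* (interval −0.2 to 0.22, adjusted p = 0.96). Without KO 1 and WT 1 the *Emd* interval narrowed to −0.18 to 0.05 around −0.06. *Emd* shares 343 exon bases with the pseudogene *Gm14686* on its own strand, so reads of the 2 may have been divided. *Tmpo* shares 244 exon bases with *Gm26765* on the other strand, at 1.26 to 6.18 FPKM. *Emd* lies at chrX:74254687-74261548 on the plus strand and *Tmpo* at chr10:91147571-91181315 on the minus strand.

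The SUN proteins span the inner membrane and hold the nesprins from inside the nucleus. *Sun1* measured 8.18 FPKM in KO 1, 12.1 in KO 2, 12.8 in KO 3, 12.3 in KO 4 and 13.8 in KO 5, against 6.75 in WT 1, 10.2 in WT 2, 10.04 in WT 3 and 9.52 in WT 4. KO 2 to KO 5 lay above all WT libraries, and KO 1 lay below WT 2 to WT 4 and above WT 1. *Sun1* averaged 12.7 ± 0.753 FPKM in KO 2 to KO 5 and 9.14 ± 1.62 FPKM in WT (SD, n = 4 each). The log2 fold change of 0.45 (SE 0.13, limma adjusted p = 0.0508) sat at the threshold. It was 0.33 without KO 1 and WT 1 (limma adjusted p = 0.00309), 0.28 with the replicate block (adjusted p = 0.0111) and 0.34 over all 9 libraries (adjusted p = 0.351). The exact permutation test for KO 2 to KO 5 against WT gave p = 0.0286 (n = 4 each), the smallest it can give.

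*Sun2* was the most abundant of the 10 per length, at 182 FPKM in KO 1, 124 in KO 2, 126 in KO 3, 127 in KO 4 and 128 in KO 5, against 170 in WT 1, 102 in WT 2, 96.8 in WT 3 and 99.6 in WT 4. As with *Lbr*, WT 1 lay above KO 2 to KO 5 and the other WT libraries below them. The log2 fold change was 0.15 (95% interval −0.27 to 0.57, limma adjusted p = 0.577) and, without KO 1 and WT 1, 0.34 (interval 0.27 to 0.42, adjusted p = 0.00023). It was also called with the replicate block, at 0.28 (limma adjusted p = 0.0211). *Sun1* over *Sun2* was 0.0965 to 0.108 in KO 2 to KO 5 and 0.0956 to 0.104 in WT 2 to WT 4, which overlap, and 0.0449 in KO 1 and 0.0398 in WT 1. Both genes thus differed from WT by similar amounts in the 7 libraries, at log2 fold changes of 0.33 for *Sun1* and 0.34 for *Sun2*. *Sun1* (chr5:139200637-139249840, plus strand) shares 302 exon bases with the antisense *4930520M14Rik*, which reached 1.36 FPKM, and *Sun2* (chr15:79724070-79742536, minus strand) shares 147 with the antisense *Gm16575*, which reached 1.21 FPKM. The sources used here do not say whether strand entered the counting.

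Nesprin-1 and nesprin-2 are giant outer membrane proteins that bind actin and hold SUN proteins through their KASH domains. *Syne2*, which encodes nesprin-2, measured 1.18 FPKM in KO 1, 3.76 in KO 2, 3.62 in KO 3, 3.82 in KO 4 and 3.95 in KO 5, against 0.764 in WT 1, 1.66 in WT 2, 1.64 in WT 3 and 1.73 in WT 4. KO 2 to KO 5 lay above every WT library, whereas KO 1 was above WT 1 and below the other WT libraries. The means were 3.79 ± 0.138 FPKM in KO 2 to KO 5 and 1.45 ± 0.458 FPKM in WT (SD, n = 4 each). The log2 fold change of FPKM + 1 was 0.99 (SE 0.15, 95% interval 0.65 to 1.33, limma adjusted p = 0.00447). Without KO 1 and WT 1 it was 0.84 (limma adjusted p = 8.86e-05), and over all 9 libraries it was 0.76 and did not pass (adjusted p = 0.152). With the replicate number as a block over the same 9 libraries it was 0.69 and passed (limma adjusted p = 0.011). On recovered reads, 688 in KO 1, 1403 to 1628 in KO 2 to KO 5 and 295 to 781 in WT, limma-voom gave a log2 fold change of 1.45 (adjusted p = 0.00492).

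*Syne1*, which encodes nesprin-1, measured 1.57 FPKM in KO 1, 4.56 in KO 2, 4.49 in KO 3, 4.60 in KO 4 and 5.72 in KO 5, against 1.62 in WT 1, 3.56 in WT 2, 3.83 in WT 3 and 3.04 in WT 4. KO 2 to KO 5 lay above all WT libraries, and KO 1 lay at the bottom of all 9. The log2 fold change was 0.58 (95% interval 0.13 to 1.02) and did not pass (limma adjusted p = 0.0875), while without KO 1 and WT 1 it was 0.38 and passed (adjusted p = 0.0195). *Syne1* over *Syne2* was 1.2 to 1.45 in the 5 KO libraries and 1.75 to 2.33 in the 4 WT libraries, with KO 1 (1.33) and WT 1 (2.12) inside the range of their genotype. Set against its sister gene in the same library, *Syne2* was thus relatively more abundant in every KO library than in any WT library. *Syne1* lies at chr10:5020917-5551482 on the minus strand and *Syne2* at chr12:75818134-76110926 on the plus strand, where 10 of its exon bases are shared with the microRNA gene *Mir5101*.

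**Figure D3:**
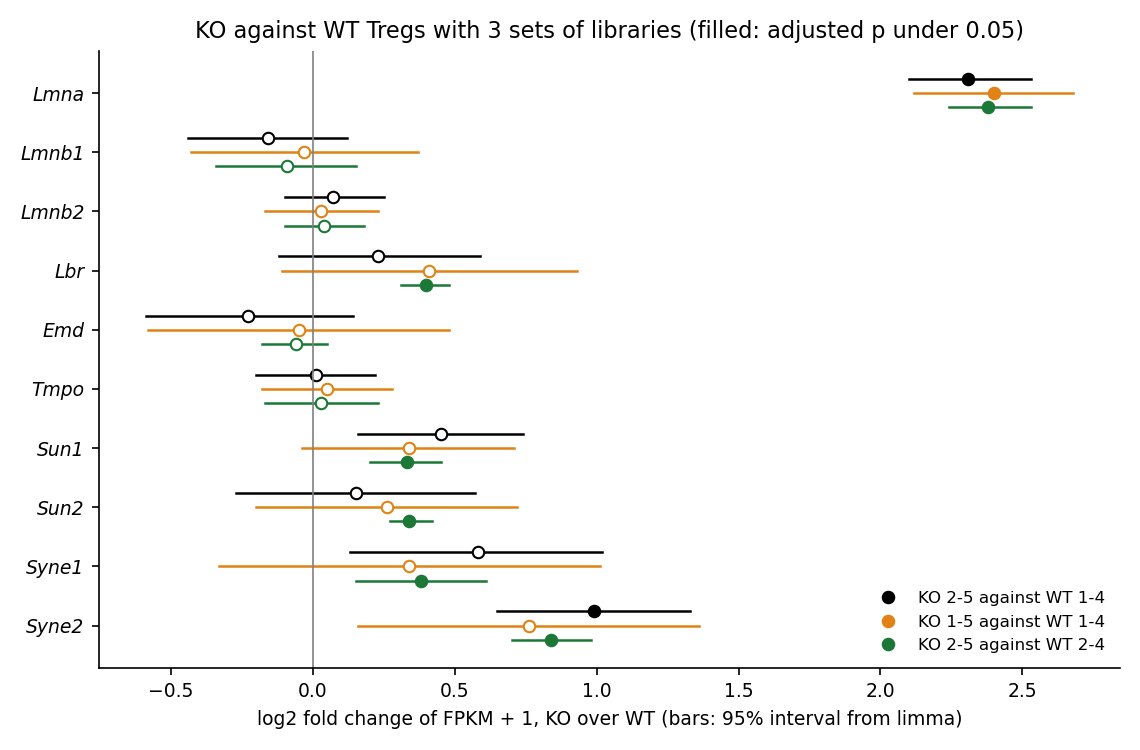
Log2 fold change of FPKM + 1, KO over WT, with 95% intervals from limma for KO 2 to KO 5 against WT 1 to WT 4, for all 9 libraries and without KO 1 and WT 1, where filled points have an adjusted p under 0.05. *Lmna* is filled in all 3, *Syne2* in the first and last, and *Lbr*, *Sun1*, *Sun2* and *Syne1* only without KO 1 and WT 1.

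Counted over the set, limma called 2 of the 10 genes higher and 0 lower in KO 2 to KO 5 against WT 1 to WT 4, where 6.58% of all tested genes were called higher and 6.68% lower. With all 9 libraries it called 1 higher and 0 lower, against 3.21% and 3.55% of all genes, and without KO 1 and WT 1 it called 6 higher and 0 lower, against 19.1% and 17.6%. With the replicate block over all 9 libraries, 5 of the 10 were called higher, against 15.0% of all genes. The count of lower genes was also 0 at an unadjusted p under 0.05, in limma and in limma-voom. Every KO library lay above every WT library for 4 of the 10 in the main comparison (15.9% of all genes), for 1 over all 9 libraries (6.08%) and for 6 without KO 1 and WT 1 (23.6%). The median log2 fold change of the 10 was 0.19 in the main comparison, against 0.01 over all tested genes.

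KO 1 and WT 1 departed from their own genotype in the same direction for all 10 genes. On the log2 scale of FPKM + 1, KO 1 differed from KO 2 to KO 5 by −1.18 for *Syne1*, −1.13 for *Syne2* and −0.582 for *Sun1*, and WT 1 differed from WT 2 to WT 4 by −0.771 for *Syne1*, −0.601 for *Syne2* and −0.496 for *Sun1*. Both were higher than their genotype for *Emd* (0.896 in KO 1 and 0.669 in WT 1), *Lbr* (0.881 in KO 1 and 0.651 in WT 1) and *Sun2* (0.526 in KO 1 and 0.765 in WT 1). The nesprin transcripts are the longest of the set, with 40491 annotated exon bases in *Syne1* and 26726 in *Syne2*. Among the 200 tested genes with at least 16000 exon bases, the median departure was −0.585 in KO 1 and −0.322 in WT 1, and among the 3285 genes of 2000 to 4000 bases it was 0.318 in KO 1 and 0.245 in WT 1. The 3 nucleus-retained RNAs looked at, among them *Malat1* and *Neat1*, summed to 31.5 FPKM in KO 1 and 269 to 393 FPKM in KO 2 to KO 5, against 25.6 FPKM in WT 1 and 193 to 294 FPKM in WT 2 to WT 4. The part of length or of nuclear RNA in the departures was not tested, and *Lmna* was called with and without these libraries.

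**Figure D4:**
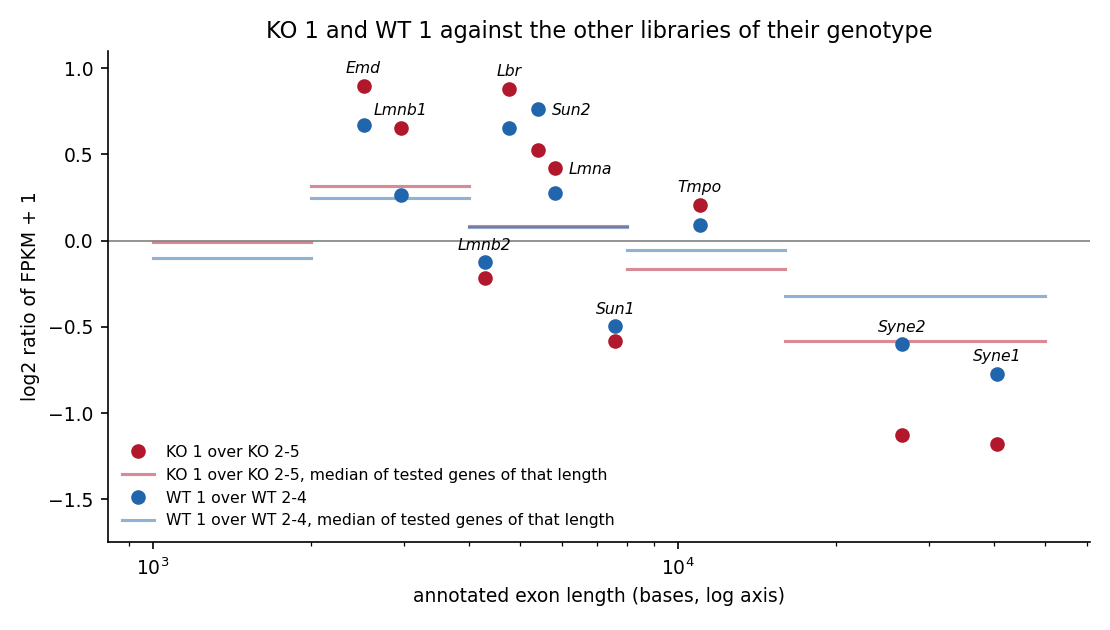
Log2 ratio of FPKM + 1 of KO 1 over KO 2 to KO 5 (red) and WT 1 over WT 2 to WT 4 (blue) for the 10 genes, against annotated exon length in bases on a log axis, with horizontal lines at the medians of tested genes by length class (the shortest and the longest class have no lower and no upper limit). *Syne1* and *Syne2* lie lowest in both libraries, at −1.18 and −1.13 in KO 1 and −0.771 and −0.601 in WT 1.

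Other genes of the nuclear envelope were read from lists given by role. In the main comparison 6.58% of all tested genes were called higher and 6.68% lower, and these shares stand beside each list count here and below. Calls of 1 or 2 genes in a list are therefore values of single genes and no result about the list. Of 14 further inner nuclear membrane genes, 2 were called in the main comparison, both higher. These were *Nrm*, which encodes nurim, at 18.9 ± 0.919 FPKM in KO 2 to KO 5 and 13.8 ± 1.85 FPKM in WT (SD, n = 4 each; log2 fold change 0.43, limma adjusted p = 0.0248), and *Lemd2*, which encodes a LEM-domain protein, at 36.9 ± 0.965 FPKM in KO 2 to KO 5 and 31.3 ± 0.849 FPKM in WT (SD, n = 4 each; 0.23, limma adjusted p = 0.0473). Of 8 further LINC gene names, 5 were among the entries measured and 3 were expressed enough to test. The one called was *Syne3*, which encodes nesprin-3 and fell to 7.85 ± 0.499 FPKM in KO 2 to KO 5, against 10.1 ± 0.959 FPKM in WT (SD, n = 4 each; log2 fold change −0.32, limma adjusted p = 0.0444). The *Syne3* transcript thus differed from WT in the direction opposite to that of *Syne2*. None of these calls passed with all 9 libraries.

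Of 6 genes that process lamins, 1 fell. *Fntb*, which encodes the beta subunit of the farnesyltransferase that modifies prelamin A and the B-type lamins, measured 3.86 FPKM in KO 1, 2.57 in KO 2, 3.19 in KO 3, 2.50 in KO 4 and 2.70 in KO 5, against 6.46 in WT 1, 5.31 in WT 2, 5.15 in WT 3 and 4.95 in WT 4. All KO libraries lay below all WT libraries. The log2 fold change was −0.79 (limma adjusted p = 0.00224), and it was called in the same direction with all 9 libraries at −0.71 (adjusted p = 0.00945). *Casp6*, a caspase that cleaves lamin A in apoptosis, averaged 2.48 ± 0.43 FPKM in KO 2 to KO 5 and 4.03 ± 1.05 FPKM in WT (SD, n = 4 each) and did not pass (limma adjusted p = 0.066).

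Of 6 tested genes for heterochromatin and its tethering, *Prr14*, which links heterochromatin protein 1 to the lamina, rose to 31.4 ± 2.04 FPKM in KO 2 to KO 5, against 23.0 ± 2.67 FPKM in WT (SD, n = 4 each; log2 fold change 0.44, limma adjusted p = 0.0259) and was the one called. *Cbx1*, which encodes a heterochromatin protein 1, averaged 16.5 ± 1.97 FPKM in KO 2 to KO 5 and 19.0 ± 1.83 FPKM in WT (limma adjusted p = 0.229, n = 4 each). Of 27 tested nuclear pore genes, *Nup107*, part of the pore's scaffold, fell to 10.8 ± 0.882 FPKM in KO 2 to KO 5, against 14.0 ± 1.0 FPKM in WT (SD, n = 4 each; log2 fold change −0.35, limma adjusted p = 0.0308) and was the one called. *Nup160*, of the same scaffold, averaged 5.4 ± 0.201 FPKM in KO 2 to KO 5 and 6.8 ± 0.796 FPKM in WT (limma adjusted p = 0.0685, n = 4 each). The calls of *Prr14* and *Nup107* did not pass with all 9 libraries.

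**Figure D5:**
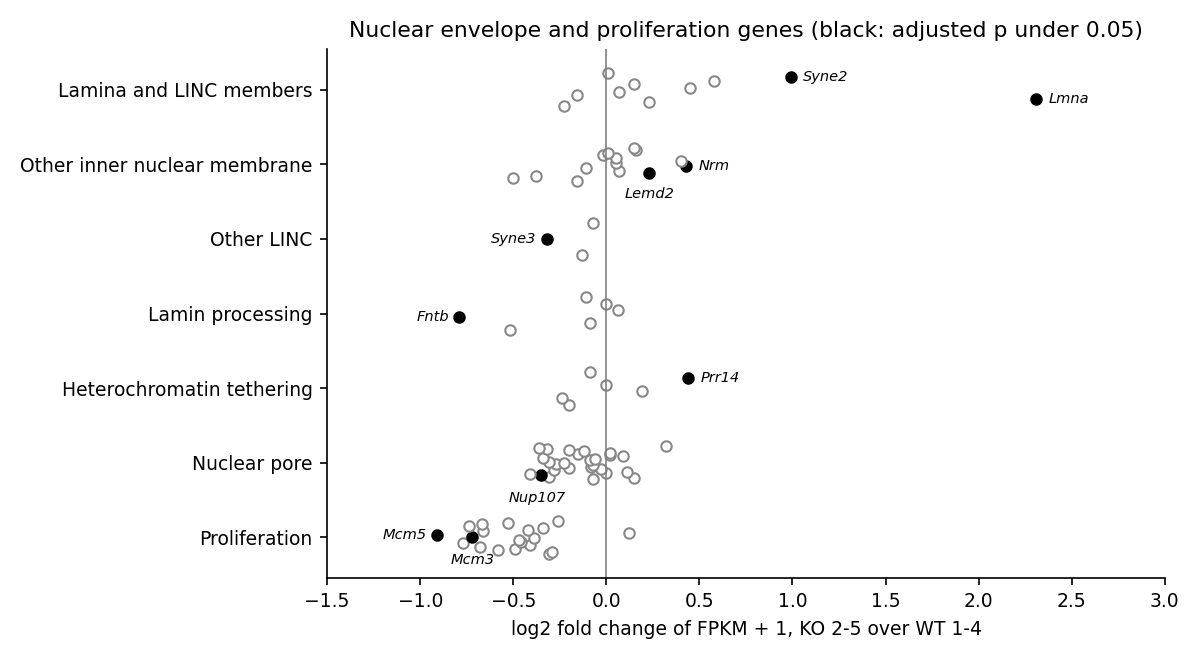
Log2 fold change of FPKM + 1, KO 2 to KO 5 over WT 1 to WT 4, for the tested genes of the 10 and of 6 lists (inner nuclear membrane, LINC, lamin processing, heterochromatin, nuclear pore and proliferation), 1 point per gene, where black points have an adjusted p under 0.05 and are named. *Lmna* at 2.31 and *Syne2* at 0.99 lie farthest right among the genes plotted and *Mcm5* at −0.91 farthest left.

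Other measured features moved beside the lamina genes. Of 20 proliferation genes, 2 were called lower, where 6.68% of all tested genes were. These were *Mcm5* and *Mcm3*, subunits of the replicative helicase, with log2 fold changes of −0.91 (limma adjusted p = 0.0183) and −0.72 (adjusted p = 0.0201). Neither passed with all 9 libraries (limma adjusted p = 0.138 for *Mcm5* and 0.321 for *Mcm3*). The list summed to 107 to 168 FPKM in KO 2 to KO 5 and 247 FPKM in KO 1, against 174 to 257 FPKM in WT. KO 5 had the lowest sum as well as the lowest *Lmnb1* and *Tmpo*, and the part of proliferation in those values was not tested. Of 6 Treg identity genes, 1 fell, *Il2ra*, the IL-2 receptor alpha chain, at 42.9 ± 1.1 FPKM in KO 2 to KO 5 and 114 ± 10.7 FPKM in WT (SD, n = 4 each; log2 fold change −1.38, limma adjusted p = 0.000106).

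The summed markers of myeloid cells, B cells, and CD8 T and NK cells were each lower in all of KO 2 to KO 5 than in any WT library. In KO 1, the B cell sum and the CD8 T and NK sum lay above every WT library. The sum of 8 myeloid markers came to 3.31 to 12.1 FPKM in KO 2 to KO 5 and 20.5 FPKM in KO 1, against 12.9 to 41.7 FPKM in WT. The median log2 fold change was −1.32 over the 4 that could be tested. In limma, 3 of these 4 were lower at an unadjusted p under 0.05 without passing after adjustment. Without KO 1 and WT 1 all 4 were called lower, against 17.6% of all genes. *Adgre1* also entered that fit, but only through WT 2 to WT 4, with 0 to 0.562 FPKM in KO 2 to KO 5. Its call was thus favoured by the filter and is not counted. The 8 B cell markers summed to 12.8 to 14.7 FPKM in KO 2 to KO 5 and 26.9 FPKM in KO 1. In WT they came to 20.5 to 25.8 FPKM. Most of each sum was *Cd79b*, at 10.7 to 12.8 FPKM in KO 2 to KO 5, 25.5 in KO 1 and 14.6 to 21.5 in WT. It did not pass (limma adjusted p = 0.0615). The other of the 2 tested, *Cd79a*, was called lower (limma adjusted p = 0.0444, and 0.0377 with all 9 libraries). Sums over 6 CD8 T and NK markers were 20.7 to 26.9 FPKM in KO 2 to KO 5 and 59.1 FPKM in KO 1, against 31.4 to 50.7 FPKM in WT, with 1 of 3 tested called lower (*Nkg7*, limma adjusted p = 0.0471, and 0.727 with all 9 libraries). None of these markers was at 0 in all 9 libraries, although *Ebf1*, a B cell transcription factor, was at 0 in 3 of them. The part of other cells in the lamina values was not tested.

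The genes whose pattern was most like that of *Lmna* were taken by Pearson's r of log2(FPKM + 1) over the 9 libraries, among 12302 genes. For *Lmna* these were *Nr1d1*, which encodes the nuclear receptor REV-ERB alpha (r = 0.998), *Vipr1*, which encodes a receptor of vasoactive intestinal peptide (r = 0.997), and *Gm45552* (r = 0.996). *Nr1d1* measured 11.6 FPKM in KO 1 and 8.01 to 9.06 FPKM in KO 2 to KO 5, against 1.71 to 2.34 FPKM in WT, so it shared both the genotype difference and the high KO 1 value. For *Lmnb1* they were *Ap5s1* (r = 0.984), *Gm44349* (r = 0.970) and *Ryk* (r = 0.964), and *Ap5s1* was highest in KO 1 (8.13 FPKM) and lowest in KO 5 (4.22 FPKM), as *Lmnb1* was. These libraries share the genotype groups and the departure of KO 1 and WT 1, and the values of r are descriptions.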

How the data were processed

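Splenic Tregs of KO and WT mice were measured by RNA-Seq in 9 libraries. Per the submitters' processing notes, bases were called with CASAVA, reads were cleaned with fastp and the genome build was mm10. For aligner, counter and annotation, names were not given in the sources used here. The authors deposited FPKM for 25500 entries in every library, and the supplementary columns with their own fold changes and p-values were not used. No column belonged to no sample (0 columns). Exon lengths came from GENCODE M21, and promoter windows from RefSeq on GRCm38.p6, which had 15 windows for 9 of the 10 genes.

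Genes entered the test if at least 4 of the 8 libraries exceeded 1 FPKM. The test was limma (version 3.58.1 in R 4.3.3) on log2(FPKM + 1), with variances moderated along the mean trend. Adding 1 to each FPKM understates the fold changes of low genes. With 0.1 added instead, the log2 fold change was 2.88 for *Lmna* and 1.39 for *Syne2*. A gene was called when its p, adjusted by Benjamini-Hochberg over all genes tested, was under 0.05. Whole reads were recovered by gene length and library for 95.6% of entries, within 0.01 read, and limma-voom on them called 704 genes higher and 748 lower. The 10 genes and all lists were chosen with earlier results of these data known. Named genes were the 10, per list the tested genes with the smallest p, up to 2, and the 3 genes most like *Lmna* and *Lmnb1* by Pearson's r. A further marker list is not reported here.

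Replicate numbers are shared by KO and WT in the labels, which do not say what they mark. Deviations from the group means correlated at 0.867, 0.425, 0.316 and 0.469 for numbers 1 to 4. All were over 0.1, so a fit with the number as a block was made. Differently numbered libraries among 2 to 4 reached 0.351 to 0.57 as well. KO 5, which has no WT library of its number, reached 0.384 with WT 3. The group means include KO 1 and WT 1, which stood apart, so these correlations cannot decide whether the numbers mark pairs. The block fit is therefore an alternative and no paired analysis, and KO 5 adds nothing to its genotype contrast. The other alternatives were all 9 libraries, leaving out KO 1 and WT 1 or each library, other scalings, filters and pseudocount, and limma-voom. The script was also run on reads simulated from the means of WT 2 to WT 4, where no library stood apart as WT 1 does. Of changes of 1 log2 unit it called 85.6%, and of changes of 2 it called 100%, with 13 false calls among 11752 genes. That run therefore does not cover the effect of WT 1 on the calls. Tables were made with Python 3.11.15, pandas 2.3.3 and numpy 2.4.6, and figures with matplotlib 3.10.9.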

Additional observations from a re-analysis of the deposited data

Results flagged for a closer look

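In each genotype the highest or lowest library was compared with its nearest neighbour by Dixon's criterion, which chance passes in about 1 in 20 groups. Of 20 groups looked at (10 genes in 2 genotypes), 9 passed, 5 of them through KO 1 and 4 through WT 1. *Lbr* stood out in KO 1 at 112 FPKM and in WT 1 at 72.3 FPKM, *Emd* at 40.1 FPKM in KO 1 and 35.6 FPKM in WT 1, and *Sun2* at 182 FPKM in KO 1 and 170 FPKM in WT 1, all of them high. *Syne2* stood out low, at 1.18 FPKM in KO 1 and 0.764 FPKM in WT 1. *Lmna* stood out high in KO 1, at 15.1 FPKM, and no WT library did so for this gene. The same 2 libraries stood apart over all genes.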

How the results depend on the processing

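*Lmna* was called higher in KO under all 18 alternatives, with adjusted p from 1.77e-07 to 0.000396, and *Syne2* under all but the fit of all 9 libraries (8.86e-05 to 0.152), except that it was left untested by the filter in all 8 libraries. The adjusted p ranged from 0.000157 to 0.493 for *Lbr*, 0.00152 to 0.351 for *Sun1*, 0.00023 to 0.807 for *Sun2* and 0.0195 to 0.687 for *Syne1*. Over the 10 genes, 155 of 179 values kept their direction and side of the threshold. The fit without WT 1 is the same as that without KO 1 and WT 1. It is counted under both names here and among the 18 alternatives. The count of members called higher was 1 with all 9 libraries, 6 without KO 1 and WT 1, 5 with the replicate block, 5 with a term for these libraries (an alternative chosen after seeing the data), 3 with upper quartile scaling, 3 with limma-voom, the added gene being *Sun1* in both, and 2 to 6 with each library left out. The count of genes called was 1622 in the main comparison, 832 with all 9 libraries, 4620 without KO 1 and WT 1, 3448 with the replicate block, 4471 with the added term, and 802 to 4620 with each library left out. Leaving out WT 1, which is the fit without KO 1 and WT 1, gave both upper ends, and the count of genes called was 808 without KO 2, 807 without KO 3, 802 without KO 4, 1061 without KO 5, 989 without WT 2, 938 without WT 3 and 1380 without WT 4. The block turned the sign for *Lmnb1* to 0.067 and for *Emd* to 0.017, neither called, and changed no other call than those of *Lbr*, *Sun1* and *Sun2*. *Tmpo* ranged from −0.0245 to 0.084 with each library left out. The causes were not tested. WT *Lmna*, at 113 to 151 reads, is the value most limited by depth.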
